A study of Sus scrofa with 20 samples.

Results

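The alpha actins and a growth factor receptor of contractile cells were followed through testis RNA of 20 boars: ACTA1 (ENSSSCG00000010190), ACTA2 (ENSSSCG00000010447) and PDGFRB (ENSSSCG00000014442), 3 of the 22059 Ensembl gene IDs in the files of either breed. They were selected on measured values, namely on their difference between Landrace boars at the extremes of the sperm DNA fragmentation index (DFI), so that difference is given below as a description without a test. DFI is the share of sperm DNA that denatures under acid, read by acridine orange staining in a flow cytometer. The samples were Norsvin Landrace boars, 5 with low DFI (0.62% to 1.70% in the labels) and 4 with high DFI (5.58% to 8.04%), and Norsvin Duroc boars, 5 with low DFI (1.05% to 1.13%) and 6 with high DFI (4.13% to 5.63%). All were artificial insemination boars picked for extreme DFI, and each gave 1 library from a piece of 1 testicle taken at slaughter. Age per boar was not in the sources used here.

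Actins form the thin filaments on which myosin pulls. ACTA2 encodes the alpha actin of smooth muscle, and in the testis it is best known from the peritubular myoid cells, the flat contractile cells around the seminiferous tubules, and from the muscle layer of blood vessels. ACTA1 encodes the alpha actin of skeletal muscle. PDGFRB encodes the beta receptor for platelet-derived growth factor, a tyrosine kinase on cells of the vessel wall, on peritubular cells and on other stromal cells. The alpha actin proteins are almost identical, their coding sequences are close, and the reads were 50 bases long, so reads shared between actin genes make every actin level uncertain. The protocol did not keep the strand, so reads of an antisense transcript cannot be told apart from those of the gene.

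Total counts were 18086448 to 51782156 per library, and the shallowest library was that of Landrace high boar 1. The 41 pairs of boars within groups differed in counts by 19.3 to 125 times the sampling variance, so no 2 libraries of a group held the same counts. All 4 high Landrace boars and low boars 1 and 2 carry titles in 1 short run of numbers, whereas low boars 3, 4 and 5 carry other numbers, and the meaning of the run is not stated. Values are counts scaled to library size (CPM) after scaling with the trimmed mean of M values (TMM), and boars are numbered within groups. The reads behind 1 value were 237 to 2426 for ACTA1, 1021 to 5132 for ACTA2 and 110 to 559 for PDGFRB. The symbol PDGFRB belongs to the ID above in the study's gene lists and to another ID, ENSSSCG00000022741, in the annotation table used here. That second PDGFRB entry is not 1 of the 3 genes and is given beside them, with 57 to 268 reads per boar.

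ACTA1 varied most among the low DFI boars. In Landrace it had 53.8, 30.0, 15.6, 14.1 and 21.2 CPM in low boars 1 to 5, and 13.1, 10.5, 12.9 and 12 CPM in high boars 1 to 4. Every high boar lay below every low boar, but the groups came close (13.1 against 14.1 CPM), and low boars 1 and 2 of the title run held the 2 highest values. In Duroc it had 37.9, 52.5, 14.5, 26.3 and 16.2 CPM in low boars 1 to 5, and in the 6 high boars the lowest value was 14.9, the median 17.4 and the highest 34.6 CPM. The Duroc groups overlapped, and a high boar exceeded a low boar in 11 of 30 pairs.

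ACTA2 took the opposite order. In Landrace it had 38.3, 41.2, 24.1, 69.7 and 52.2 CPM in low boars 1 to 5, and 65.9, 119, 71.9 and 96.4 CPM in high boars 1 to 4. The groups overlapped through low boar 4 alone, and the high boar was above the low boar in 19 of 20 pairs. In Duroc low boars 1 to 5 ACTA2 had 55.7, 52.8, 37.5, 40.6 and 88.7 CPM, and in the 6 high boars the lowest value was 47.3, the median 70.6 and the highest 112 CPM. The Duroc groups overlapped, with the high boar above the low boar in 24 of 30 pairs.

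PDGFRB took the order of ACTA2. In Landrace it had 3.12, 4.56, 4.27, 4.70 and 5.56 CPM in low boars 1 to 5, and 11.1, 10.8, 8.67 and 8.14 CPM in high boars 1 to 4, without overlap. In Duroc low boars 1 to 5 it had 4.85, 4.31, 3.03, 3.99 and 9.56 CPM, and in the 6 high boars the lowest value was 5.58, the median 8.94 and the highest 11.6 CPM. Duroc low boar 5 lay among the high boars, and without it every Duroc high boar would stand above every low boar. The same boar was highest of its group for ACTA2. The second PDGFRB entry had 1.86 to 2.45 CPM in Landrace low and 2.68 to 5.24 CPM in Landrace high boars. In Duroc it had 1.47 to 4.05 CPM in low and 2.95 to 5.71 CPM in high boars. ACTA1 and PDGFRB were chosen on the Landrace contrast, so the separation of their Landrace groups is no separate result. The share of all genes that separate these groups is not given here.

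**Figure D1:**
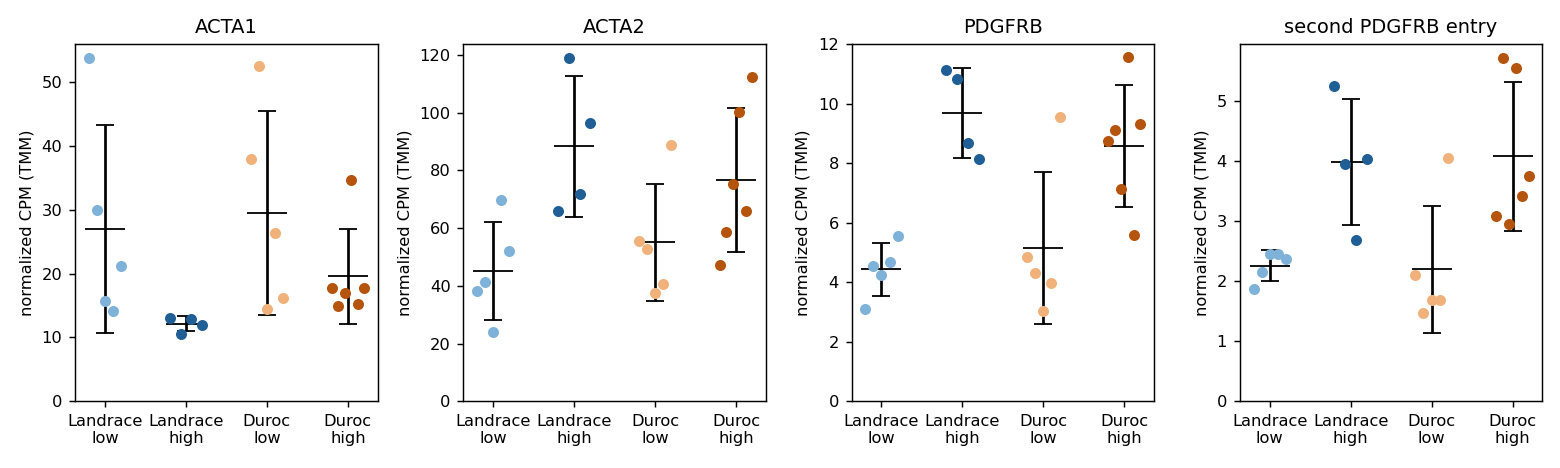
Normalized CPM (TMM, linear axis from 0) of ACTA1, ACTA2, PDGFRB and the second PDGFRB entry, with 1 point per boar and black bars for the mean ± SD of each group (n = 5, 4, 5 and 6 from left to right). ACTA1 reaches 53.8 CPM in Landrace low and stays at 10.5 to 13.1 CPM in Landrace high boars, whereas PDGFRB in Duroc low has 1 boar at 9.56 CPM above the other 4.

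The group means give the order of levels. ACTA1 stood at 29.5 ± 15.9 CPM (SD, n = 5) in Duroc low, 26.9 ± 16.2 (n = 5) in Landrace low, 19.6 ± 7.47 (n = 6) in Duroc high and 12.1 ± 1.18 CPM (n = 4) in Landrace high boars. ACTA2 had the reverse order of DFI groups, with 88.3 ± 24.3 CPM in Landrace high, 76.6 ± 24.9 in Duroc high, 55.0 ± 20.3 in Duroc low and 45.1 ± 17.0 CPM in Landrace low boars. PDGFRB stood at 9.70 ± 1.51 CPM in Landrace high, 8.58 ± 2.05 in Duroc high, 5.15 ± 2.55 in Duroc low and 4.44 ± 0.882 CPM in Landrace low boars. Neighbouring means in these orders differed by less than the larger of their SDs, except for PDGFRB between Duroc high and Duroc low boars. In a piece of whole testis, fewer cells of a type and less RNA per cell cannot be told apart.

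Whether the pattern that chose the genes is also found in the other breed was asked in Duroc. The study named the 3 genes for Landrace and left them out of the genes it found in both breeds. That its test did not call them in Duroc was thus known beforehand, so Duroc is no independent check of the calls. None of the 3 genes passed edgeR's quasi-likelihood test with Benjamini-Hochberg adjustment over 14666 genes, in which 0.0136% of genes were called at an adjusted p under 0.05 (SAA4 and ENSSSCG00000028503, named here for the count alone). PDGFRB had a log2 fold change (logFC, high against low DFI) of 0.74 ± 0.27 (SE) and an adjusted p of 0.164, with an unadjusted p of 0.0183. ACTA2 had a logFC of 0.47 ± 0.26 and an adjusted p of 0.2996. ACTA1 had a logFC of -0.60 ± 0.33 and an adjusted p of 0.318. The second PDGFRB entry had a logFC of 0.89 ± 0.28 and an adjusted p of 0.134.

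The likelihood ratio test with tagwise dispersion, the kind of test the study ran, called 2.56% of the same genes in Duroc and also none of the 3. The study's list of genes shared by both breeds lacks all 3 as well. The adjusted p of the likelihood ratio test run here in Duroc was 0.0849 for PDGFRB, 0.231 for ACTA2 and 0.254 for ACTA1. Without Duroc low boar 5 the quasi-likelihood logFC of PDGFRB was 1.08 with an adjusted p of 0.0508, and that of ACTA2 was 0.71. With other single boars left out the logFC of ACTA1 ran from -0.84 (without high boar 4) to -0.28 (without low boar 2), so the boar with the highest ACTA1 of each Duroc group set much of its size.

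In Landrace, where the genes were chosen, the same model gave logFC of -1.14 ± 0.35 (SE) for ACTA1, 0.97 ± 0.27 for ACTA2 and 1.13 ± 0.17 for PDGFRB. Over all genes it called 0% at an adjusted p under 0.05 (2417 of 14519 had an unadjusted p under 0.05). The share called by the likelihood ratio test was 5.28%, and it held all 3 genes. Those calls belong to the contrast that selected the genes and nothing is read from them. Among the 6 boars of the title run the logFC of ACTA1 was -1.78 ± 0.22. The DFI effect in Duroc minus that in Landrace was 0.56 ± 0.52 for ACTA1, -0.49 ± 0.40 for ACTA2 and -0.38 ± 0.35 for PDGFRB on the log2 scale, each given without a test because 1 side of it chose the genes.

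**Figure D2:**
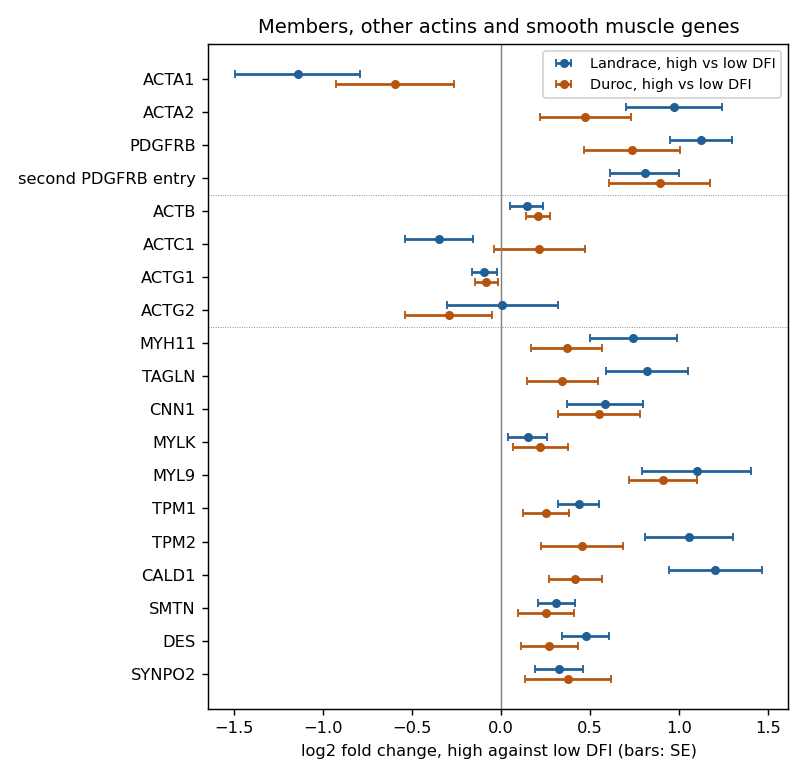
Log2 fold change of high against low DFI (points, with bars for the SE of the quasi-likelihood fit) in Landrace (n = 5 low and 4 high) and Duroc (n = 5 low and 6 high) for the selected genes, the other actins and smooth muscle genes. ACTA1 lies left of 0 in both breeds (-1.14 and -0.60), while ACTA2, PDGFRB and all smooth muscle genes except ACTG2 lie right of 0 in both.

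The breeds were compared over both DFI groups in a fit of all 20 boars. None of the 3 genes passed the quasi-likelihood test, which called 18.4% of 14636 genes, nor the likelihood ratio test, which called 15.6%. ACTA1 had a logFC of 0.41 ± 0.26 (Duroc against Landrace, adjusted p = 0.292 in edgeR). It was 0.09 without the 3 Landrace low boars outside the title run. ACTA2 had a logFC of 0.04 ± 0.20 (adjusted p = 0.914) and PDGFRB 0.02 ± 0.18 (adjusted p = 0.957), and the sign of both turned when single boars were left out. Within DFI groups, given without a test, the Duroc against Landrace logFC of ACTA1 was 0.13 ± 0.36 among low and 0.69 ± 0.38 among high boars.

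The opposite orders of both alpha actins were drawn together in the log2 ratio of ACTA1 to ACTA2 in each boar, with 0.5 CPM added to each. The ratio is not scaled to transcript length, so it compares boars and not the genes' amounts. It was -0.82 ± 1.02 (SD) in Landrace low, -2.78 ± 0.53 in Landrace high, -0.99 ± 0.93 in Duroc low and -1.94 ± 0.45 in Duroc high boars. The high group mean was thus lower by 1.96 log2 units in Landrace, where the lowest low boar (-2.26) and the highest high boar (-2.29) almost touched. In Duroc the difference of the means was -0.96, and the groups overlapped.

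**Figure D3:**
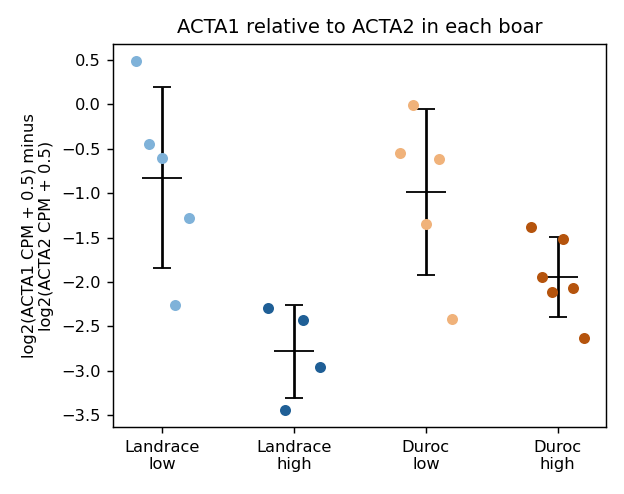
Log2 ratio of ACTA1 to ACTA2 (CPM plus 0.5, not scaled to length) in each boar, with black bars for the mean ± SD of each group. High DFI boars have the lower mean in both breeds (-2.78 against -0.82 in Landrace, -1.94 against -0.99 in Duroc), and the low groups are the wider ones.

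How both actins relate to PDGFRB from boar to boar was tested within each breed on log2(CPM + 0.5), after the mean of each DFI group was subtracted. With 6 relations in the family, none passed the correction. ACTA2 and PDGFRB had a Pearson r of 0.70 in the 11 Duroc boars (exact two-sided permutation within DFI groups, p = 0.0300, adjusted p = 0.180) and a Spearman rho of 0.65 (p = 0.0425, adjusted p = 0.255). The size of r depended most on Duroc low boar 5. Without it r was 0.47 (exact permutation p = 0.229), and without any other single boar it was 0.63 to 0.82. Without the 2 boars farthest from the median of ACTA2, low boar 5 and high boar 1, r was 0.64 (exact permutation p = 0.107). In the 9 Landrace boars r was 0.28 (exact permutation p = 0.521, adjusted p = 0.831) and rho 0.30 (p = 0.458, adjusted p = 0.688), and r was 0.32 without 2 boars.

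ACTA1 and PDGFRB had an r of 0.10 in Duroc (exact permutation p = 0.852, adjusted p = 0.852) and rho was 0.14 (p = 0.744, adjusted p = 0.744). That value was -0.04 without 2 boars, but 0.70 without Duroc low boar 5 (exact permutation p = 0.0234, chosen among 11 such values). In Landrace r was -0.59 (exact permutation p = 0.182, adjusted p = 0.545) and rho -0.35 (p = 0.422, adjusted p = 0.688). That r was 0.04 without 2 boars and 0.05 without low boar 1, the boar with 53.8 CPM of ACTA1. ACTA1 and ACTA2 had an r of 0.18 in Duroc (exact permutation p = 0.638, adjusted p = 0.831; rho 0.13, p = 0.738, adjusted p = 0.744) and -0.21 in Landrace (p = 0.692, adjusted p = 0.831; rho -0.40, p = 0.363, adjusted p = 0.688). Without 2 boars these were -0.01 and 0.24.

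**Figure D4:**
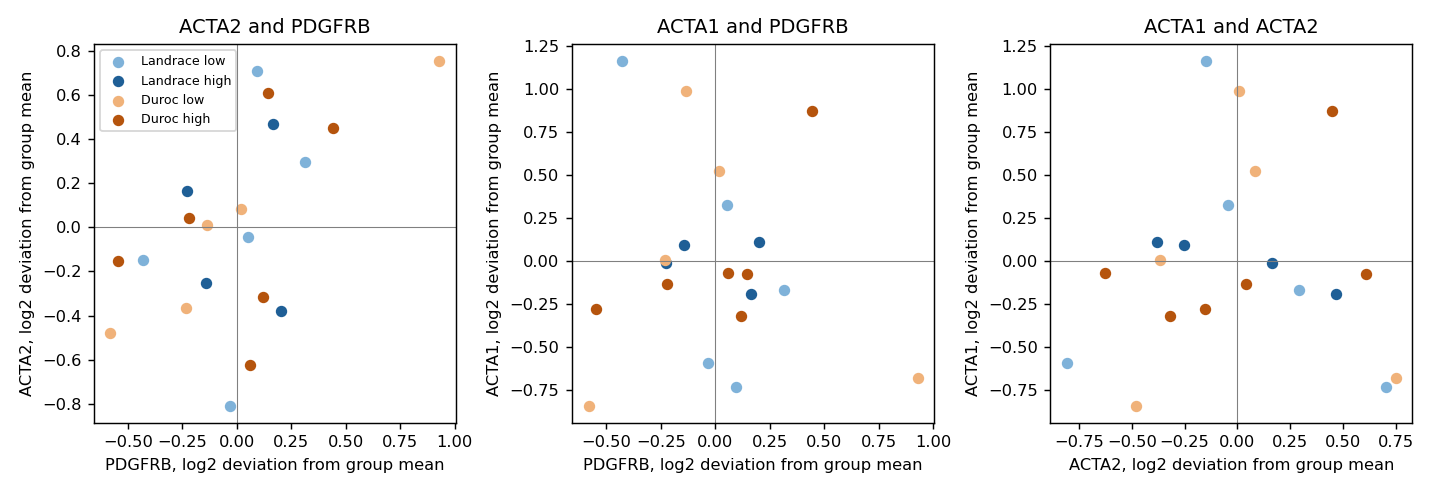
Deviations of each boar from its group mean on log2(CPM + 0.5), for ACTA2 against PDGFRB (left), ACTA1 against PDGFRB (middle) and ACTA1 against ACTA2 (right), with points coloured by group. Duroc low boar 5 is the rightmost point of the left panel, and r over the 11 Duroc boars there is 0.70 with it and 0.47 without it.

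Over all 20 boars, with the 4 group means subtracted, the genes whose levels ran most like each member were ranked among 14635 others, and the 5 highest that have a symbol are named. Library depth and cell makeup differ between boars and can move many genes together in this measure, so the r values describe the samples and carry no p. ACTA2 ran with genes of the smooth muscle filament system: TPM2 (a tropomyosin, r = 0.95), TAGLN (transgelin, 0.94), MYH11 (the smooth muscle myosin heavy chain, 0.89), CSRP1 (a LIM protein bound to actin filaments, 0.88) and TBC1D17 (0.84). Each of these 5 r values was 0.79 or more in either breed taken alone.

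Among genes with a symbol, PDGFRB ran most like SLIT2 (a secreted guidance ligand, r = 0.88), NDRG2 (0.87), CCDC22 (0.86), IL1R1 (the interleukin-1 receptor, 0.85) and GUCY1B1 (the beta subunit of the nitric oxide receptor guanylate cyclase, 0.84). SLIT2 had low levels, with group means of 0.873 to 1.63 CPM. The second PDGFRB entry ranked 30th for PDGFRB with an r of 0.76, and ACTA2 ranked 708th with 0.54. The second entry itself had SLIT2 (0.90) and NDRG2 (0.87) at its head.

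ACTA1 ran with none of these genes. Its closest genes with a symbol were RHOU (r = 0.82), CDCA3 (0.76), MRPS18A (a mitochondrial ribosome protein, 0.75), GLYR1 (0.71) and CCDC12 (0.71). ACTA2 ranked 7075th for ACTA1 with an r of 0.01, and PDGFRB 9574th with -0.10. RHOU lies near ACTA1 in the pig genome (assembly Sscrofa11.1 of RefSeq), as the gene 3 protein-coding positions away, which was looked up after its value was seen. The other 6 measured genes within 5 positions of ACTA1 had r values from -0.46 (NUP133, the nearest on the other side) to 0.31 (CCSAP, the nearest on the same side).

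RHOU had 74.2 ± 18.0 CPM (SD) in Landrace low, 57.7 ± 12.3 in Landrace high, 69.2 ± 28.1 in Duroc low and 58.6 ± 16.3 CPM in Duroc high boars. Its logFC in Duroc was -0.24 ± 0.24 (edgeR quasi-likelihood, adjusted p = 0.589).

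Smooth muscle genes were followed as a list of 13, of which 12 were tested. In Duroc 11 of 12 had a logFC above 0 with a median of 0.36. Over all genes 51.8% lay above 0 there, with a median of 0.01. The quasi-likelihood test called none of them, and 0.0136% of all genes in Duroc. An unadjusted p under 0.05 was found for 3 of the 12, and for 21.2% of all genes tested in Duroc. The only call of the likelihood ratio test, which called 2.56% of all genes in Duroc, was MYL9 (the regulatory light chain of smooth muscle myosin, logFC 0.91, adjusted p = 0.000813). In Landrace, as a description, all 12 lay above 0 with a median of 0.53, as did 47.3% of all genes with a median of -0.01. The likelihood ratio test called 5 of the 12 there, all higher in high DFI boars. Of its 767 calls over all genes in Landrace (5.28%), 746 were higher as well. The summed level was 183 to 268 CPM in Landrace low and 308 to 457 CPM in Landrace high boars, and 183 to 291 CPM in Duroc low and 247 to 364 CPM in Duroc high boars. In both breeds the logFC of ACTA2 and PDGFRB had the sign of the list's median, and that of ACTA1 the opposite sign.

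The other actins differed little between DFI groups. ACTB and ACTG1 (the cytoplasmic actins), ACTC1 (the cardiac alpha actin) and ACTG2 (the gamma actin of visceral smooth muscle) had logFC from -0.29 to 0.22 in Duroc and from -0.35 to 0.14 in Landrace. None of the 4 was called by either test in either breed. Over all genes the quasi-likelihood test called 0.0136% in Duroc and 0% in Landrace, and the likelihood ratio test 2.56% and 5.28%. Of the 4, 1 (ACTB) had an unadjusted p under 0.05 in Duroc, where 21.2% of all genes had one. All 4 had an r of -0.07 or less with ACTA1 over the 20 boars. Between the breeds ACTG1 was higher in Duroc (logFC 0.16, edgeR adjusted p = 0.0183), a call the likelihood ratio test did not give (adjusted p = 0.0964). Those tests called 18.4% and 15.6% of all genes between the breeds.

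Other markers of skeletal muscle, the tissue best known for ACTA1, are given as a description. Of 18 listed symbols 6 matched an ID in the files and 4 passed the filter, so most defining markers (CKM, MB, MYH1 and MYH2 among them) were not analysed here. The 4 that passed were ACTN2, NEB, TNNT1 and TNNC2, with means over the 20 boars of 3.93, 3.14, 1.91 and 1.89 CPM. MYL1 and TCAP did not pass. MYL1, a light chain of fast skeletal myosin, was at 0.0221 to 0.121 CPM over the 20 boars, and TCAP, a titin cap protein, at 0.237 to 1.21 CPM. The sum of the 6 genes was 8.35 to 13.4 CPM in Landrace low, 8.995 to 13.0 in Landrace high, 9.41 to 12.5 in Duroc low and 9.91 to 15.3 CPM in Duroc high boars. Its mean was 10.8 CPM in both low DFI groups, 11.4 CPM in Landrace high and 12.8 CPM in Duroc high boars. The part of skeletal muscle in the values of ACTA1 was not tested. Of the 4 tested genes 2 had a logFC above 0 in Duroc and 2 below (ACTN2 -0.25 and TNNT1 -0.03), the sign of ACTA1. NEB, the giant thin filament protein nebulin, went from 1.75 CPM in Duroc low to 4.21 CPM in Duroc high boars on average, more than the difference of the summed list. It had a logFC of 1.26 ± 0.29 in Duroc (edgeR quasi-likelihood adjusted p = 0.112, likelihood ratio test adjusted p = 0.00394), opposite in sign to ACTA1.

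The other genes of the platelet-derived growth factor system showed no call between DFI groups. PDGFC and PDGFD (ligands) and PDGFRA (the alpha receptor) had logFC of -0.28, 0.04 and 0.38 in Duroc and -0.29, -0.01 and 0.36 in Landrace. Neither test called any of the 3. Over all genes the quasi-likelihood test called 0.0136% in Duroc and 0% in Landrace, and the likelihood ratio test 2.56% and 5.28%. With shares this low, few calls among so few genes say little about them. PDGFA passed no filter, with 0.142 to 1.16 CPM, and PDGFB was not analysed here. Of genes of vascular mural cells, the contractile cells on vessels, 5 were tested in each breed, and 4 of these were shared (MCAM, NOTCH3, ANGPT1 and KCNJ8). Of the 5, 4 had a logFC above 0 in Duroc (median 0.14) and 4 in Landrace (median 0.58), over sets that differ by 1 gene. The share of all genes above 0 was 51.8% in Duroc and 47.3% in Landrace. CD248 was tested in Duroc alone (logFC 1.05, edgeR quasi-likelihood adjusted p = 0.137). ABCC9, a potassium channel subunit, was tested in Landrace alone (logFC 1.63) and was the only gene of the list that the likelihood ratio test called in either breed. SRF, the transcription factor that drives muscle actin genes, had a logFC of 0.11 in Duroc and 0.13 in Landrace, and none of the 3 tested genes of its list was called in either breed.

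**Figure D5:**
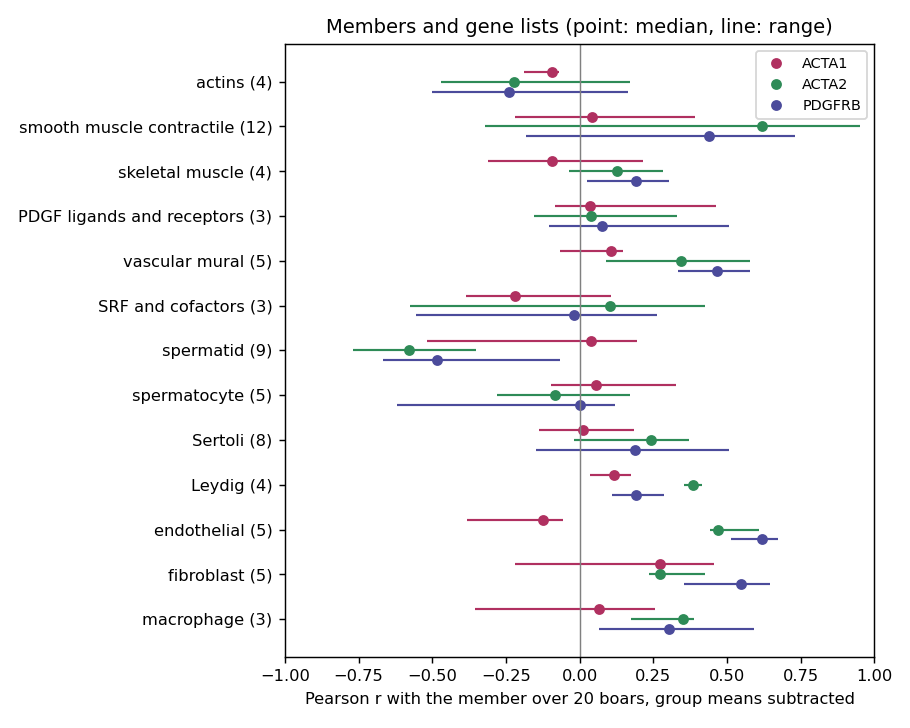
Pearson r of ACTA1, ACTA2 and PDGFRB with the genes of each list over the 20 boars after subtraction of group means (point for the median, line for the range, number of genes in brackets). ACTA2 stands at a median of 0.62 for smooth muscle genes and -0.58 for spermatid genes, whereas the medians of ACTA1 lie between -0.22 and 0.27.

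Markers of several other testis cells had the same sign as ACTA2 and PDGFRB. Leydig cell genes (steroid makers of the interstitium) had 4 of 4 logFC above 0 in both breeds, with medians of 0.88 in Duroc and 1.27 in Landrace. Their sum ran from 785 to 5936 CPM in Duroc low and from 3310 to 6998 CPM in Duroc high boars, and from 1236 to 4102 CPM in Landrace low and from 4487 to 11943 CPM in Landrace high boars. Endothelial genes had 5 of 5 above 0 in both breeds (medians 0.44 and 0.56), and fibroblast genes 5 of 5 in Duroc and 4 of 4 in Landrace (medians 0.94 and 0.63). Macrophage genes had 3 of 3 above 0 in both breeds. Of all genes tested, 51.8% lay above 0 in Duroc and 47.3% in Landrace.

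Germ cell genes had the other sign. All 9 tested spermatid genes had a logFC below 0 in both breeds, with medians of -0.25 in Duroc and -0.17 in Landrace. Over all genes 51.8% lay above 0 in Duroc and 47.3% in Landrace. Genes of 1 cell type can move together, so they are not separate observations. Of spermatocyte genes 5 of 5 lay below 0 in Duroc and 4 of 5 in Landrace. Sertoli cell genes had 7 of 8 above 0 in Duroc and 3 of 8 in Landrace. The quasi-likelihood test called no gene of these lists in either breed, and 0.0136% of all genes in Duroc and 0% in Landrace. The likelihood ratio test called 2 Leydig, 3 fibroblast and 1 macrophage gene in Duroc, and 4 Leydig, 2 endothelial, 2 fibroblast and 2 macrophage genes in Landrace. All of these were higher in high DFI boars, as were most calls over all genes (293 of 376 in Duroc and 746 of 767 in Landrace). That test called 2.56% of all genes in Duroc and 5.28% in Landrace. The part of cell makeup in the values of ACTA1, ACTA2 and PDGFRB was not tested.

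Within groups the 3 genes were set beside the same lists. The median r with endothelial genes was 0.62 for PDGFRB, 0.47 for ACTA2 and -0.12 for ACTA1. With fibroblast genes it was 0.55, 0.27 and 0.27 in the same order, so ACTA2 and ACTA1 had equal medians there to this precision. With spermatid genes it was -0.48, -0.58 and 0.04, with Leydig genes 0.19, 0.38 and 0.12, and with macrophage genes 0.30, 0.35 and 0.07. The median r over all genes was within 0.03 of 0 for each of them.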

How the data were processed

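Testis RNA of 20 boars was sequenced as 50 bp single-end reads in non-stranded libraries. The deposited values are counts of reads per Ensembl gene, which the authors made with TopHat2 2.0.12 on the pig genome and HTSeq without strand, and did not normalize. The lowest value in every file is 1, and whether 0 was replaced or 1 was added is not stated. Files listed 21648 IDs in Landrace and 21717 in Duroc.

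Each breed was fitted alone in R 4.3.3 with edgeR 4.0.16 (TMM, quasi-likelihood F-test, Benjamini-Hochberg, threshold 0.05) on genes above 1 CPM in at least 5 Landrace or 6 Duroc boars. The breeds were compared in a fit of 4 group means after the same filter in 10 or more of all 20 boars. The SE of a logFC is its size divided by the square root of F. Correlations used exact permutations in Python 3.11.15. The scripts were tested on simulated data. P-values of the fits judge a group difference against the spread between boars. Those of the correlations come from permuting boars within their DFI groups.

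The genes and lists were chosen with earlier results of these data known. Named genes are the 3 members, listed genes (those called, otherwise those of highest level) and, for each member, the 5 genes with a symbol most alike to it. Of 104 listed symbols 77 matched an ID, 3 of them through the study's lists. Alternatives were the likelihood ratio test, DESeq2 1.42.0, RLE scaling, no filter, values of 1 set to 0, a joint fit, subsets of the title run and each boar left out. No genome was used here, so coordinates and sequences are not given, and the RefSeq table served for the order of genes alone. Depth was 18086448 to 51782156 counts per library.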

Additional observations from a re-analysis of the deposited data

Results flagged for a closer look

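Dixon's criterion for a single distant value was applied to the 3 genes and the second PDGFRB entry in each group of 4 to 6 boars. In 3 of these 16 sets of values 1 boar stood apart, where chance gives about 1 in 20 independent sets. The sets share boars, and both PDGFRB entries flag the same boar, so the 3 flags are not independent and the count is not compared with that rate. ACTA1 was 34.6 CPM in Duroc high boar 4 and 14.9 to 17.8 CPM in the other 5 boars of its group. PDGFRB was 9.56 CPM in Duroc low boar 5 and 3.03 to 4.85 CPM in the other 4, and the second PDGFRB entry was 4.05 CPM in the same boar and 1.47 to 2.10 CPM in the others.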

How the results depend on the processing

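The count of genes called between DFI groups depended on the method. In Duroc it was 2 with the quasi-likelihood test, 376 with the likelihood ratio test, 869 with DESeq2, 0 without a filter and 0 in the joint fit, and 0 to 17 with 1 boar left out (17 without low boar 5). In Landrace it was 0, and 767, 842, 1 and 324 in the same order, and 0 to 2 with 1 boar left out (2 without low boar 3, 1 without low boar 1). The count between the breeds stayed within 1.5 times of 2696 under every alternative run. In Duroc the logFC of the 3 genes kept their sign and stayed uncalled under all alternatives run, with ranges of -0.84 to -0.28 (ACTA1), 0.34 to 0.71 (ACTA2) and 0.60 to 1.08 (PDGFRB) when 1 boar was left out. The Landrace logFC of ACTA1 was -1.78 among the 6 boars of the title run, and -1.31 to -0.74 with 1 boar left out. Between the breeds ACTA2 ran from -0.071 to 0.146 and PDGFRB from -0.147 to 0.089 with 1 boar left out. The within-group r with 1 boar left out ran as follows. ACTA1 and PDGFRB ran from -0.67 to 0.049 in Landrace and from -0.19 to 0.70 in Duroc. ACTA1 and ACTA2 ran from -0.77 to 0.15 in Landrace and from -0.016 to 0.57 in Duroc, and the -0.77 (without low boar 3) had an exact permutation p of 0.00694. ACTA2 and PDGFRB ran from 0.47 to 0.82 in Duroc, with exact permutation p from 0.0111 to 0.229. The cause of these changes was not tested. No paired analysis was made, because each boar gave 1 library and stood in 1 group. PDGFRB rested on the fewest reads of the 3 genes, 110 to 559 per boar.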
